A study of Mus musculus with 8 samples.

Results

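Il1rapl2 and 3 of its relatives in the interleukin-1 receptor family, Il1rapl1, Il1rap and Il1r1, were followed across the nuclei of the mouse hippocampus on postnatal day 21. These 4 genes, of 32285 in the expression matrices, were chosen by name, and Il1rapl2 was selected on its higher counts in CA3 neurons of both libraries from the high folic acid diet. That difference is therefore described below, and no test of it is given. The chromatin data added 13 regions over Il1rapl2, of 253724 in all.

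The nuclei came from male wild-type C57BL/6J pups whose dams, adults (8 weeks old per the labels, with a wider range of ages in the methods of the study), ate folic acid at 2 mg/kg (moderate folic acid, MF) or 20 mg/kg (high folic acid, HF). The diets ran from before mating through pregnancy and lactation, and all pups were otherwise untreated. Each diet had 2 libraries, MF1, MF2, HF1 and HF2, each a 10x Genomics single-nucleus multiome library that read RNA (GEX) and open chromatin (ATAC) from the same nuclei. The number of pups behind a library is not stated in the sources used here, so the spread between libraries may be partly technical.

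The interleukin-1 receptors are membrane proteins with immunoglobulin domains outside the cell and a TIR domain inside it. Il1r1 is the receptor that binds interleukin-1, and Il1rap is the accessory chain that joins it so that a signal can start through Myd88 and the Irak kinases. Il1rapl1 and Il1rapl2 are accessory-protein-like members of the X chromosome. Il1rapl1 is known as a postsynaptic adhesion protein that binds the presynaptic phosphatase Ptprd, and changes in the human gene cause intellectual disability. Il1rap also binds such phosphatases at synapses, while the role of Il1rapl2 is less well known.

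Il1rapl2 (ENSMUSG00000059203.10) lies at chrX:137570608-138846946 on the plus strand of GRCm38 (mm10) and spans 1276 kb. Il1rapl1 (ENSMUSG00000052372.10) lies at chrX:86740870-88115645 on the minus strand and spans 1375 kb. Il1rap (ENSMUSG00000022514.14) at chr16:26581704-26730117 and Il1r1 (ENSMUSG00000026072.12) at chr1:40225080-40317257, both on the plus strand, span 148.4 and 92.18 kb. Nuclear RNA is read largely from introns, so counts rise with the length of a gene, and levels are compared between genes only per 100 kb. An antisense gene, Gm20319, overlaps the 3′ end of Il1rap, and Gm38070 lies within Il1r1. The strand setting of the counting was not given in the sources used here.

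The 250 bases before the outermost exon near the start of each gene, over the GENCODE and RefSeq annotations, are shown because an ATAC region with a peak in all 4 libraries covered each of them, and for Il1r1 this was an internal start 41.5 kb into the gene. Sequences were read from RefSeq's GRCm38 genome, 5′ to 3′ on the strand of the gene. Capitals mark the GC box, GGGCGG on either strand, a motif chosen after the letters had been seen.
Il1rapl2 promoter, chrX:137570358-137570607, plus strand: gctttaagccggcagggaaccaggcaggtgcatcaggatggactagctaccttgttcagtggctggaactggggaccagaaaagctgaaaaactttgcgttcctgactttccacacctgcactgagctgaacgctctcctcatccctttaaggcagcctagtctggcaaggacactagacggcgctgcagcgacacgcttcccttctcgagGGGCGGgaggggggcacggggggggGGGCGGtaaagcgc
Il1rapl1 promoter, chrX:88115949-88116198, minus strand: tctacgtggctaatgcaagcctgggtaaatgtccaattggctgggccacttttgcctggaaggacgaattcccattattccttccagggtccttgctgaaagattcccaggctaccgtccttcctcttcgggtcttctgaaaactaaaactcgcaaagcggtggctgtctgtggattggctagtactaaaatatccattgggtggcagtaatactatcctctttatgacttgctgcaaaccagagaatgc
Il1rap promoter, chr16:26581259-26581508, plus strand: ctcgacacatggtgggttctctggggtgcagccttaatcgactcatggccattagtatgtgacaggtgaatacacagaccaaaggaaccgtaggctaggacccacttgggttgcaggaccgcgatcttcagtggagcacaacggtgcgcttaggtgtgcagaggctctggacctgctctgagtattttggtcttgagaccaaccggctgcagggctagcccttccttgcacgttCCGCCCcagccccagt
Il1r1 internal promoter, chr1:40266273-40266522, plus strand: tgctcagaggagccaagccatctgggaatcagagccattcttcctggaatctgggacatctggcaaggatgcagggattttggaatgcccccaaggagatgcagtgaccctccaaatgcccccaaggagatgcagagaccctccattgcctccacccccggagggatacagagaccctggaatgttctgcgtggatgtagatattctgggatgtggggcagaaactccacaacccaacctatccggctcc
The Il1rapl2 promoter held 2 GC boxes and 12 CG pairs, and the Il1rap promoter held 1 GC box and 10 CG pairs. The other two held 0 GC boxes, with 6 CG pairs before Il1rapl1 and 3 before Il1r1. A GC box stood in 32.7% of 32851 RefSeq promoters of the same length, whose median was 6 CG pairs. TATAAA, found in 12.4% of them, was in none of these 4 windows.

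Filters on genes, mitochondrial UMIs and ATAC counts kept 11518 of 14297 nuclei, which were then clustered on RNA. Total UMIs (unique molecules) ranged from 39223075 to 47460174 per library before filtering, and the median per kept nucleus from 6117 to 7053. Xist, which is read from an inactive X chromosome, gave 11 to 20 UMIs per library, against 3997 to 5881 for Uty of the Y chromosome. Pairs of libraries shared 8 to 20 barcodes. The CA3-like class held 471 nuclei (117, 102, 130 and 122 in MF1, MF2, HF1 and HF2), and 12 of its 13 markers were at least 2.62-fold higher there than in other nuclei, from Elavl2 at 2.62-fold to Nectin3 at 8.78-fold. The exception, Coch, was at 3.84 against 2.66 CPM (UMIs of a gene relative to all UMIs of the class, on the usual counts-per-total scale). The other classes were CA1-like (813 nuclei), mature granule-like (DG-M, 1306), immature granule-like (DG-i, 816), inhibitory-like (INH, 769), astrocyte-like (AST, 1285), oligodendrocyte-like (ODC, 655), progenitor-like (OPC, 559), committed-precursor-like (COP, 441), microglia-like (MG, 841) and Cajal-Retzius-like (CR, 137). A further class of 141 excitatory nuclei, named by markers of subiculum or cortex, was led by Alk, Klhl1 and Grik1.

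Il1rapl2 RNA was concentrated in a few kinds of neuron and was near 0 in OPC, ODC and AST. In the Alk/Klhl1-led excitatory nuclei its level was 1396, 1665, 1576 and 2048 CPM in MF1, MF2, HF1 and HF2 (1671 ± 275, SD, n = 4 libraries). In INH nuclei it was 434, 446, 425 and 380 CPM (421 ± 28.9, n = 4). The lowest library of the first class stood above the highest of INH, and the lowest of INH above the highest of every named class that followed. These are descriptions, since the classes were built from RNA of the same nuclei, although the 4 genes were kept out of the clustering.

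Of 20569 Il1rapl2 UMIs, 19.5% lay in the 141 Alk/Klhl1-led nuclei and 20.9% in INH nuclei. An unnamed excitatory cluster of 113 nuclei led by Cdc14a and Unc13c held another 16.2%, at 1259, 1905, 1167 and 2049 CPM. At least 1 UMI was found in 85.1% of Alk/Klhl1-led nuclei, in 95.6% of the Cdc14a-led ones and in 32.6% of INH nuclei. Oligodendrocytes, which served as a gauge of free RNA, had a UMI in 0.458% of nuclei at a median of 4747 UMIs per nucleus, against medians of 14259 and 11653 UMIs in the Alk/Klhl1-led and INH nuclei. After each nucleus was thinned to 2000 UMIs, the shares were 73.2 ± 5.38%, 20.9 ± 2.51% and 0% in the Alk/Klhl1-led, INH and ODC nuclei (n = 4).

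DG-M and CA1 nuclei followed, with overlapping library values. DG-M nuclei gave 105, 158, 128 and 141 CPM (133 ± 22.4) and CA1 nuclei 121, 119, 134 and 142 CPM (129 ± 11). Below them stood MG (97.6 ± 73.6), CR (95.0 ± 38.2), COP (52.9 ± 33.6), DG-i (30.3 ± 28.7) and CA3 (28.5 ± 19.2), each overlapping its neighbour. In MG the level was 40.8 CPM in MF1 and highest in MF2, on 270 UMIs in 43 of 841 nuclei, and in COP and DG-i the MF2 library stood above the other three. Without nuclei above the doublet score, the mean fell to 15.4 CPM in MG, on 22 UMIs in 6 nuclei, and to 18.9 CPM in COP, on 25 UMIs in 6 nuclei. Of the unnamed excitatory clusters, 3 more held between 262 and 290 CPM on average. The lowest CA3 library was above the highest OPC library, and OPC, AST and ODC held 5, 7 and 3 UMIs in all.

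**Figure D1:**
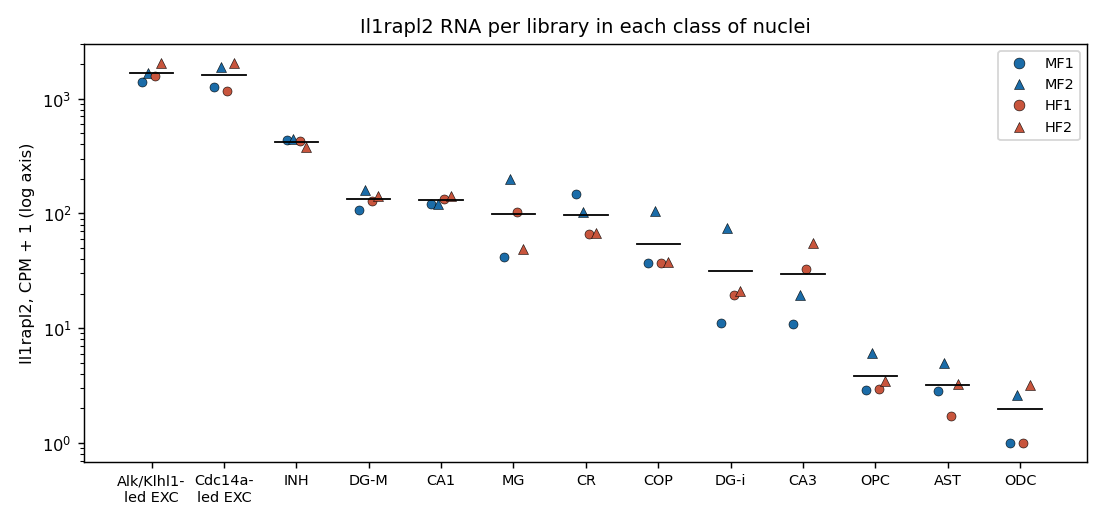
Il1rapl2 RNA in each class of nuclei, in CPM plus 1 on a log axis, with 1 point per library (blue MF, red HF; circle replicate 1, triangle replicate 2) and a line at the mean of 4 libraries. Class names are the short forms of the text, and the Cdc14a-led cluster is added. The Alk/Klhl1-led and Cdc14a-led nuclei lie above 1000 CPM in every library, INH between 380 and 446 CPM, and CA3 between 9.78 and 54.0 CPM.

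CA3 stood ninth of 12 classes in Il1rapl2, the gene that had been selected there. Its counts were 20, 34, 77 and 123 UMIs in MF1, MF2, HF1 and HF2, which made 9.78, 18.6, 31.8 and 54.0 CPM. Both HF libraries were above both MF libraries, and the means were 14.2 CPM in MF and 42.9 CPM in HF, a log2 ratio of 1.6. Within diets the log2 level varied with an SD of 0.60. This is the difference on which the gene was chosen, so no test of it is given. Over all genes with enough counts for a diet fit in CA3, both HF libraries were above both MF libraries in 7.92%.

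The UMIs came from few nuclei. In CA3 a UMI was seen in 9, 13, 15 and 17 nuclei of MF1, MF2, HF1 and HF2, and the 5 highest nuclei held 16 of 20, 25 of 34, 60 of 77 and 104 of 123 UMIs. The highest nucleus held 5, 9, 20 and 60 UMIs. Without the highest nucleus of each library the levels were 7.43, 13.8, 23.9 and 28.1 CPM, and the log2 ratio was 1.29. These counts are part of those on which the gene was chosen.

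Without a sub-cluster of CA3, c2, of 70 nuclei (15, 15, 22 and 18), 24 nuclei with an Il1rapl2 UMI were left (5, 3, 7 and 9). The sub-cluster held 11 of 20, 31 of 34, 58 of 77 and 109 of 123 of the Il1rapl2 UMIs. Its leading genes were Adarb2, Glis3, Pde7b and Il1rapl2 itself, with Zfp536 and Prox1 among the first 10. Prox1 encodes a transcription factor of granule neurons, and Adarb2 also stood among the first 10 genes of DG-M. The 10 DG-M markers summed to 1130 to 1801 CPM in c2 against 313 to 395 CPM in the other CA3 nuclei, the 12 INH markers to 352 to 536 against 54.0 to 95.0 CPM, and the 13 CA3 markers to 5004 to 5844 against 7175 to 8480 CPM. The INH markers include Adarb2, and the DG-M markers include Glis3 and Prox1, so both sums count leading genes of c2. The shares of these genes in the sums were not separated. The median nucleus of c2 had 23968 UMIs and a doublet score of 0.051, against 16650 UMIs and 0.0091 elsewhere in CA3. The part of these markers and of doublets in the Il1rapl2 counts was not tested.

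Without c2, an alternative chosen after the data were seen, Il1rapl2 in CA3 fell to 9, 3, 19 and 14 UMIs, or 5.34, 2.03, 9.92 and 7.63 CPM. The log2 ratio was 1.25 on 45 UMIs in all, which are again part of the counts on which the gene was chosen. A sub-cluster of 24 nuclei led by Prrx1 and Col18a1, with Csf2rb2 and Gal among its first 10 genes, gave 19 of these UMIs. Csf2rb2 and Gal are known markers of mossy cells of the hilus, but Gal also stood among the first 10 genes of DG-i.

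The level also depended on how CA3 was delimited. When CA3 was taken as a cluster of all nuclei, with no reclustering of excitatory nuclei (an alternative also chosen after the data were seen), Il1rapl2 stood at 94.6, 123, 103 and 155 CPM, and the diets overlapped, with a log2 ratio of 0.24. With classes set by markers alone the values were 19.7, 39.5, 52.0 and 94.4 CPM, and with finer clusters 8.00, 6.14, 21.5 and 70.6 CPM. Leaving out nuclei over the doublet score gave 6.44, 3.15, 13.9 and 47.6 CPM. The log2 ratios of these 3 were 1.30, 2.70 and 2.68, and they too describe the difference on which the gene was chosen. Without nuclei over the doublet score HF2 held 97 of its 123 UMIs, so its nucleus with 60 UMIs was still counted.

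**Figure D2:**
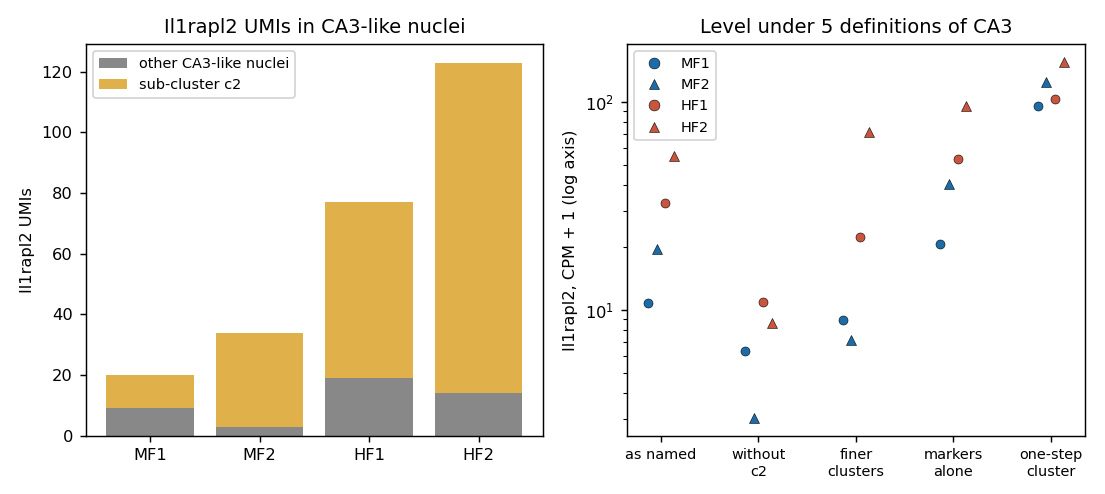
Left, Il1rapl2 UMIs in CA3-like nuclei of each library, stacked by sub-cluster c2 and the other CA3-like nuclei. Right, the level in CPM plus 1 (log axis) under 5 ways of delimiting CA3, with 1 point per library (blue MF, red HF). Sub-cluster c2 holds 11 of 20 to 109 of 123 UMIs, and the diets overlap when CA3 is a cluster of all nuclei, where HF1 at 103 CPM is below MF2 at 123 CPM.

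The relatives moved little with diet in CA3, again given without a test. Il1rapl1 stood at 967, 904, 1006 and 1106 CPM in MF1, MF2, HF1 and HF2 (log2 ratio 0.17), with both HF libraries just above both MF libraries. Il1rap was at 181, 218, 245 and 195 CPM (0.14) and Il1r1 at 5.87, 8.21, 5.78 and 6.14 CPM (-0.24), and in both the diets overlapped. Without c2 the ratio of Il1r1 was 0.33 and those of Il1rapl1 and Il1rap were 0.09 and 0.14.

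Il1rapl1 was the broadest of the 4 genes and was read in neurons and in the oligodendrocyte line alike. Its highest levels were in Alk/Klhl1-led nuclei (3411, 4134, 3813 and 3980 CPM, mean 3835 ± 311), OPC (3571 ± 352) and COP (3403 ± 365), followed by DG-M (2992 ± 394), INH (2377 ± 245) and ODC (2161 ± 411). The libraries of each of these overlapped those of the next class. DG-i (1533 ± 277), CA1 (1512 ± 100), CR (1244 ± 121), MG (1108 ± 314) and CA3 (996 ± 84.4) were lower, and AST (513 ± 81.0) lowest of the 12. In MG 13.6% to 24.5% of nuclei had a UMI of the gene, and without nuclei above the doublet score its mean was 272 ± 142 CPM. The steps from CA1 to CR and from CA3 to AST were without overlap. In OPC 99.1% of nuclei had a UMI of Il1rapl1, where 0.716% had one of Il1rapl2.

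Il1rap, the accessory chain, was highest in granule neurons. DG-M nuclei gave 699, 877, 850 and 805 CPM (808 ± 78.4) and held 28.0% of 29878 UMIs. ODC (494 ± 51.7) and COP (369 ± 41.9) came next, and each step down to OPC (257 ± 28.0) was without overlap. CA3 (210 ± 28.1), MG (191 ± 30.4), INH (156 ± 14.9), CR (141 ± 26.5) and CA1 (140 ± 13.6) overlapped as neighbours. Without nuclei above the doublet score the mean of Il1rap was 59.4 ± 7.43 CPM in MG and 81.6 ± 46.0 in CR. DG-i, at 62.0 ± 9.87 CPM, stood far below DG-M. Outside the named classes, an excitatory cluster of 369 nuclei led by Stk32b and Scn9a gave 703 ± 60.8 CPM and one of 265 nuclei led by Rasef and Pard3bos1 gave 514 ± 41.5 CPM.

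Il1r1, the ligand-binding receptor, was sparse, with 1204 UMIs in all. DG-M nuclei held 42.9% of them, at 48.9, 58.6, 42.9 and 50.8 CPM (50.3 ± 6.49), and none of the other 11 classes compared reached 16 CPM in any library. Endothelial nuclei, 23 in all, entered no comparison. In MF1, MF2 and HF1 they stood above DG-M, as given near the end. A UMI was found in 28.3% of DG-M nuclei at a median of 7403 UMIs, against 1.23% of CA1 nuclei at 12837 UMIs. The Stk32b-led cluster stood near DG-M at 42.5 ± 7.68 CPM. In OPC 0 of 559 nuclei had a UMI, at a median of 3172 UMIs per nucleus, which allows a share of nuclei with a UMI, not of nuclei that express the gene, of up to 0.537% and a level of up to 1.63 CPM over the class, for counting error only. Of the 12 classes, DG-M was the one where Il1rap and Il1r1, the chains of the interleukin-1 receptor, were both highest.

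Set against length, the order of the 4 genes in DG-M differed from that of their CPM. Per 100 kb of gene, Il1rap stood at 544 CPM, Il1rapl1 at 218, Il1r1 at 54.6 and Il1rapl2 at 10.4. In Alk/Klhl1-led nuclei Il1rapl1 led with 279 CPM per 100 kb, and Il1rapl2, at 131, was above Il1rap at 63.8. CA3 had 141 CPM per 100 kb of Il1rap, 72.4 of Il1rapl1, 7.05 of Il1r1 and 2.24 of Il1rapl2.

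**Figure D3:**
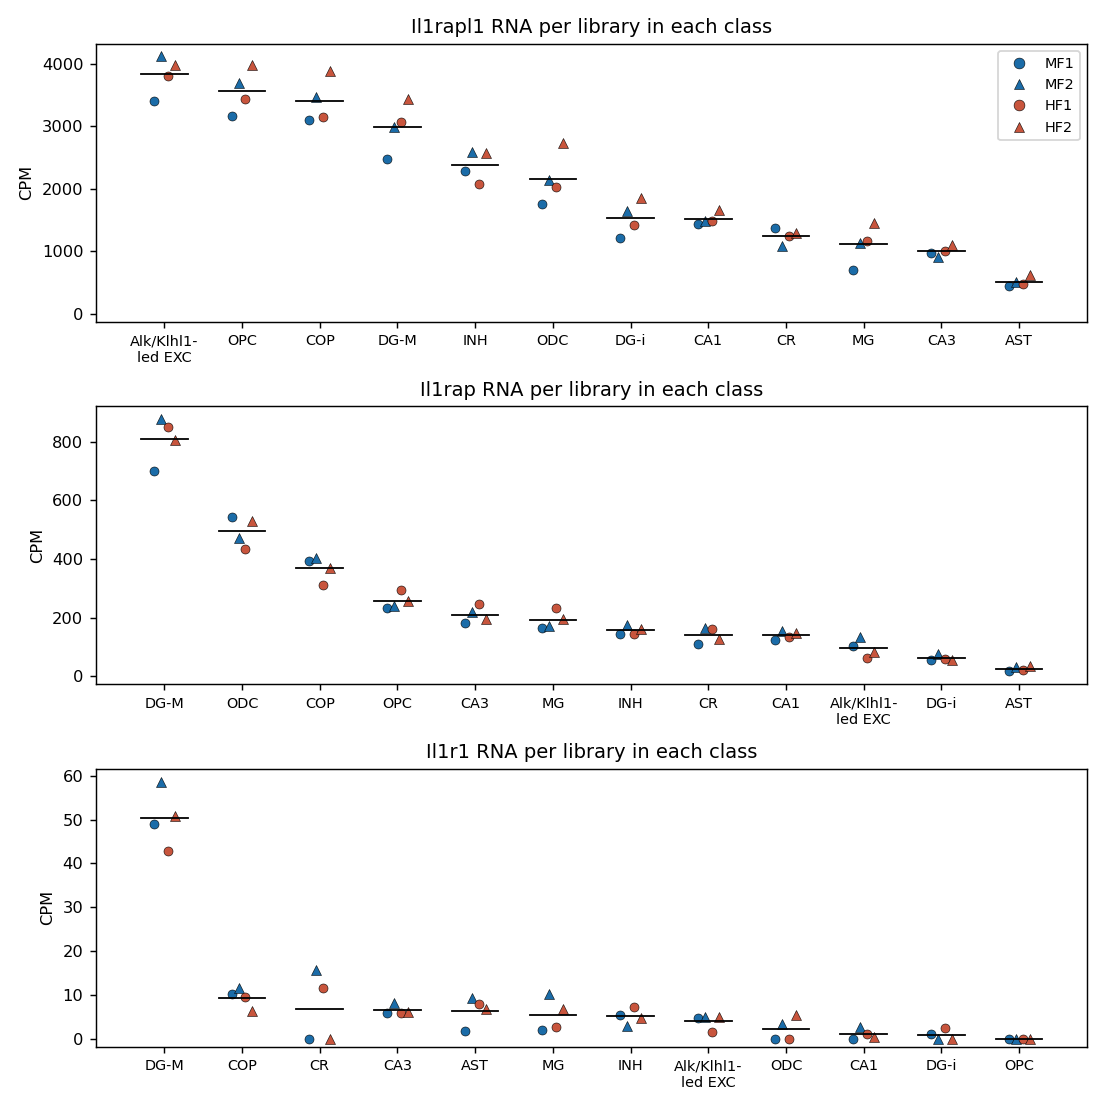
Il1rapl1, Il1rap and Il1r1 RNA in CPM, with 1 point per library (blue MF, red HF; circle replicate 1, triangle replicate 2), a line at the mean and classes in falling order. Il1rapl1 is spread over neurons and the oligodendrocyte line, Il1rap is highest in DG-M at 699 to 877 CPM, and Il1r1 stands at 42.9 to 58.6 CPM in DG-M and below 16 CPM in the other 11 classes compared.

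Within INH nuclei, Il1rapl2 and Il1rap were split between kinds of interneuron. INH nuclei were clustered again, and sub-clusters with a median doublet score over 0.05 or under 30 nuclei were left aside. Il1rapl2 stood at 690, 1053, 1809 and 779 CPM in 124 nuclei led by Mypn, Mybpc1, Syt2 and Kcng4, and at 937, 931, 548 and 1147 CPM in 66 nuclei led by Lama4 and Dmrt2 with Sst, the somatostatin gene, among the first 10. A sub-cluster of 52 nuclei led by Pappa and Rtkn2, with the neuropeptide gene Npy, gave 367, 586, 534 and 512 CPM. In the 91 nuclei led by Vip and Tac2, which encode neuropeptides, it was at 41.8, 7.56, 25.8 and 32.9 CPM. The 35 nuclei led by Has2 with Kit and Ndnf held 0 UMIs of Il1rapl2, which allows up to 9.57 CPM over the sub-cluster.

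Il1rap was highest in sub-clusters where Il1rapl2 was low or uneven. These were the Has2-led nuclei (642, 404, 426 and 716 CPM) and 70 nuclei led by Sfta3-ps and Adam28 (315, 443, 359 and 390 CPM). The Mypn-led nuclei held 72.1 to 76.1 CPM and the Sst-holding nuclei 0 to 34.9 CPM. In 82 nuclei led by Syt6 and Megf10 both genes were low, with 0 to 79.3 CPM of Il1rapl2 and 13.4 to 37.4 CPM of Il1rap. These sub-clusters were built from RNA of the same nuclei, so the split is a description. In the Sfta3-ps-led nuclei Il1rapl2 ranged from 0 CPM in HF1 to 538 CPM in MF2. Il1rapl1 was also highest in the Mypn-led nuclei, at 5034, 4142, 4130 and 5619 CPM.

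**Figure D4:**
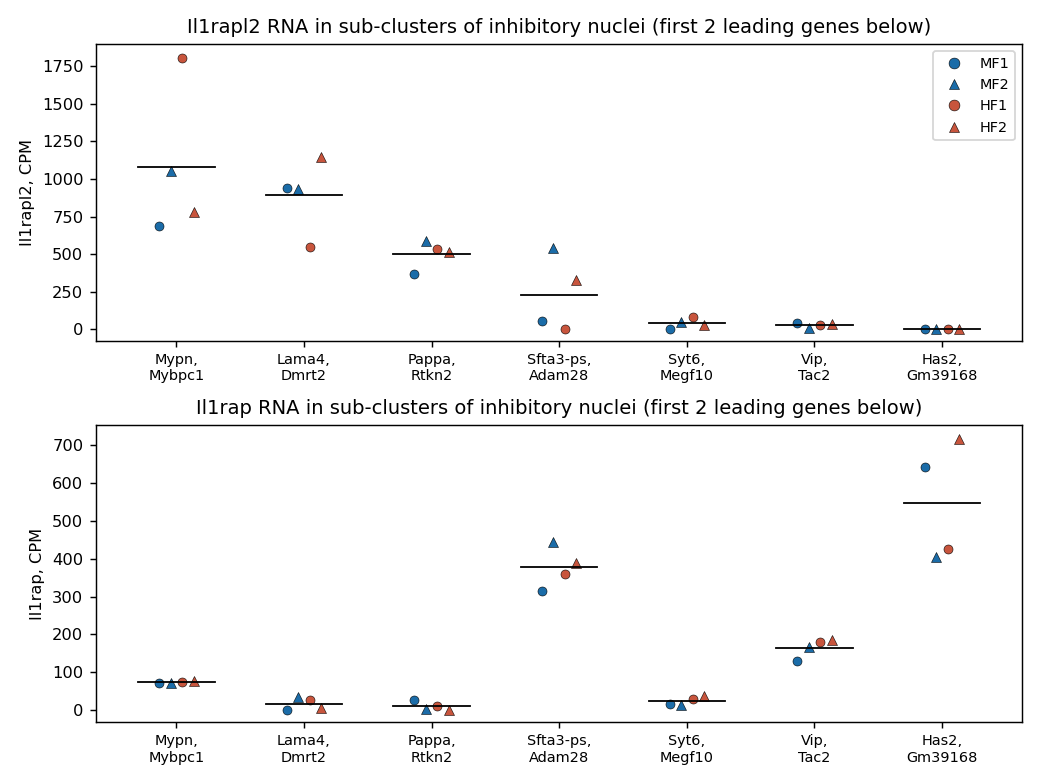
Il1rapl2 (top) and Il1rap (bottom) RNA in 7 sub-clusters of inhibitory nuclei, in CPM, named by their first 2 leading genes, with 1 point per library (blue MF, red HF) and a line at the mean. Il1rapl2 is above 500 CPM in every library of the Mypn-led and Lama4-led nuclei and at 0 in the Has2-led nuclei, where Il1rap reaches 404 to 716 CPM.

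The genes whose pattern was most like that of Il1rapl2 were found by Pearson's r of log2(CPM + 1) over 48 points, 12 classes in each of 4 libraries, among 12283 genes. Zmat4 came first (r = 0.91), then Slc35f4 (0.88), B230209E15Rik, Esrrg and Rapgef4 (0.87 each), Necab1, Gm42303 and A230006K03Rik (0.86 each) and Ttll11 (0.85). Points of a library share its depth and points of a class its cells, and no p is given. Zmat4 differed in its peak, at 625 CPM in INH and 353 CPM in Alk/Klhl1-led nuclei.

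Outside CA3, where diet could be tested, none of the 4 genes was called in the fit of diet alone over all libraries. Of 32 gene and class values tested over 11 classes by edgeR's quasi-likelihood test, 0 passed a false discovery rate (FDR) under 0.05 with at least 1.2-fold, against 0.0111% of 98904 values of all genes. DESeq2 also called 0. An unadjusted p under 0.05 was reached by 3 values (2.2% of all values), and each had an adjusted p of 0.9985 or more. Il1rapl2 in COP was at 36.2, 103, 35.6 and 36.5 CPM in MF1, MF2, HF1 and HF2 (log2 ratio -0.91, SE 0.40), where MF2 stood apart from the other three. Il1rapl2 in CR was at 146, 102, 65.7 and 66.2 CPM (log2 ratio -0.88, SE 0.37) on 65 UMIs, and the ratio was 0.68 with classes set by markers alone. Il1rap in Alk/Klhl1-led nuclei was at 101, 134, 61.4 and 82.0 CPM (log2 ratio -0.65, SE 0.29), and the ratio was 0.25 without nuclei above the doublet score.

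The remaining values were smaller or more scattered. Il1rapl2 in DG-i had a log2 ratio of -0.95 (SE 0.67), with MF2 at 72.9 CPM against 10.2 to 19.9 in the other libraries, and was called without MF1 (-1.94, edgeR adjusted p = 0.019). That fit sets MF2 alone against the HF libraries and assumes that MF varies as they do. In Alk/Klhl1-led nuclei the Il1rapl2 ratio was 0.29 (SE 0.22), in CA1 0.26 (0.18), in DG-M 0.11 (0.24) and in INH -0.09 (0.19). Il1rapl1 ran from -0.03 in INH to 0.57 in MG over 11 classes, with errors of 0.20 to 0.44. The MG level of Il1rapl1 was lower without nuclei above the doublet score, as given above. Il1rap ranged from -0.65 to 0.40 over 11 classes, and Il1r1, tested in 2, was at -0.11 in DG-M and 0.49 in INH.

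The diets' libraries did not overlap in 9 of these 32 values. HF was above MF in 5 (background 10.6% of all values) and below in 4 (16.4%). Il1rapl2 in CA1, at 119 and 121 CPM in MF against 134 and 142 in HF, and Il1rapl1 in DG-M, at 2474 and 2996 against 3065 and 3431, were among those above. Il1rapl2 in INH, at 434 and 446 CPM in MF against 425 and 380 in HF, was among those below. Counts this small are given beside the background and nothing is read from them.

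The genes around these receptors were described by lists, and none of their genes was called between diets in the 11 classes outside CA3. The interleukin-1 receptor family (10 genes) gave 33 values tested, 32 of them from the 4 genes above, with 3 at an unadjusted p under 0.05. Il1r2, Il1rl1, Il1rl2, Il18r1, Il18rap and Sigirr held 207, 30, 164, 3, 7 and 2 UMIs in all nuclei. Of 11 ligands and inhibitors 7 were in the matrices, with 15 values tested and none at an unadjusted p under 0.05, and Il18, the best read at 3472 UMIs, stood at 288 CPM in AST. Il1a, Il1b and Il1rn held 53, 11 and 1 UMIs. The signalling list of 20 genes, from Myd88 (84 UMIs) to the kinase Mapk10, gave 160 values, 0 called and 4 with an unadjusted p under 0.05. Over all genes 0.0111% of values were called and 2.2% had an unadjusted p under 0.05, to be set beside the counts of each list.

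Among the synaptic partners, Ptprd, the phosphatase that Il1rapl1 binds, stood at 10188 CPM in Alk/Klhl1-led nuclei and 8272 CPM in ODC. The 7 phosphatases and liprins gave 67 values, 0 called and 2 with an unadjusted p under 0.05 by edgeR, beside the same 2.2% over all genes. The 4 intracellular partners of Il1rapl1 (Ncs1, Dlg4, Mcf2l and Arhgap22) gave 31 values and 0 calls, none with an unadjusted p under 0.05, and the 13 other ligands of these phosphatases, such as Lrfn5 and Ntrk3, gave 95 values and 0 calls, with 1 under 0.05. DESeq2 calls were not counted for the lists.

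In the chromatin data, 6 of the 13 Il1rapl2 regions had a peak in all 4 libraries and were compared. They lay over the start of the gene (chrX:137570328-137571317, from promoter into the first, untranslated exon), in introns at 167.8, 216.4, 278.5 and 1170.4 kb from the start, and over a coding exon at 934.5 kb. Coverage was thin. The start region held 8, 10, 6 and 13 insertions of the transposase in CA3 (MF1, MF2, HF1 and HF2), from a total of 2839741 to 3543679 insertions in shared regions per library.

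Il1rapl2 chromatin was less open in CA3 than in CA1, DG-M and INH nuclei at the start of the gene, a comparison that the clustering on RNA did not use. The level over the start, in ATAC CPM (insertions scaled to those in all shared regions of the class), was 2.82, 3.30, 1.70 and 3.67 in CA3, 4.51, 9.39, 6.32 and 5.14 in CA1, 6.86, 7.89, 7.15 and 6.55 in DG-M and 4.08, 6.41, 5.64 and 5.63 in INH. Each CA3 library was below every library of the other three classes. The log2 difference was -1.18 against CA1 (SE 0.38, edgeR adjusted p = 0.0116), -1.44 against DG-M (SE 0.34, adjusted p = 0.00052) and -1.13 against INH (SE 0.41, adjusted p = 0.0184). Without c2, which held 2, 4, 0 and 4 of the CA3 insertions, the differences were -1.42, -1.69 and -1.36, all called. Against CA1 and INH the call was lost without MF2 (edgeR adjusted p = 0.084 and 0.054) or without HF1 (0.082 and 0.097).

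Against DG-M, 5 of 6 regions were lower in CA3 and 0 higher, where 24.3% of 131690 regions were lower and 25.8% higher. The largest difference in CPM was at 278.5 kb, chrX:137848673-137849601, with 12.3, 15.9, 12.4 and 19.7 ATAC CPM in DG-M against 2.82, 3.30, 5.38 and 6.49 in CA3 (log2 -1.86, SE 0.26, edgeR adjusted p = 6.4e-08). The 200 bases at its centre are shown because this was the most open intron region of the gene, with capitals at a match to TGANTCA, the AP-1 motif, searched on both strands after the letters had been seen.
Il1rapl2 intron region, chrX:137849037-137849236, plus strand: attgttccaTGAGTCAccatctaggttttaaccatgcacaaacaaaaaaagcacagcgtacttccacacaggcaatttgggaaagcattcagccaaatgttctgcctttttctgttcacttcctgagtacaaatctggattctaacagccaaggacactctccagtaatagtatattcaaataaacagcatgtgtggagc
This motif was in 10.4% of 154762 shared regions cut to the same length. The sequence lies in an intron and holds no exonic base.

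Against CA1, 2 of 4 Il1rapl2 regions tested were lower in CA3 and 0 higher (background 17.3% lower and 15.7% higher of 128917). Besides the start, the region at 1170.4 kb stood at 1.41, 0.659, 1.98 and 1.69 ATAC CPM in CA3 and at 5.73, 3.94, 4.21 and 6.67 in CA1 (log2 -1.88, SE 0.46, edgeR adjusted p = 0.00093). Against INH, 1 of 4 was lower and 0 higher (background 26.5% lower and 26.8% higher of 126387). At 278.5 kb the difference from INH was -0.68 (edgeR adjusted p = 0.12), and it was called without c2 (-0.92, adjusted p = 0.047) or without HF2 (-1.03, adjusted p = 0.048).

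Alk/Klhl1-led nuclei, the class with the most Il1rapl2 RNA, had 11, 11.8, 10.5 and 6.91 ATAC CPM at the start, on 7 to 9 insertions per library. At 278.5 kb they had 3.14, 5.89, 0 and 3.45. This class had the highest mean level at the start and a lower one than DG-M at 278.5 kb among the 5 classes, which is a description and was not tested.

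**Figure D5:**
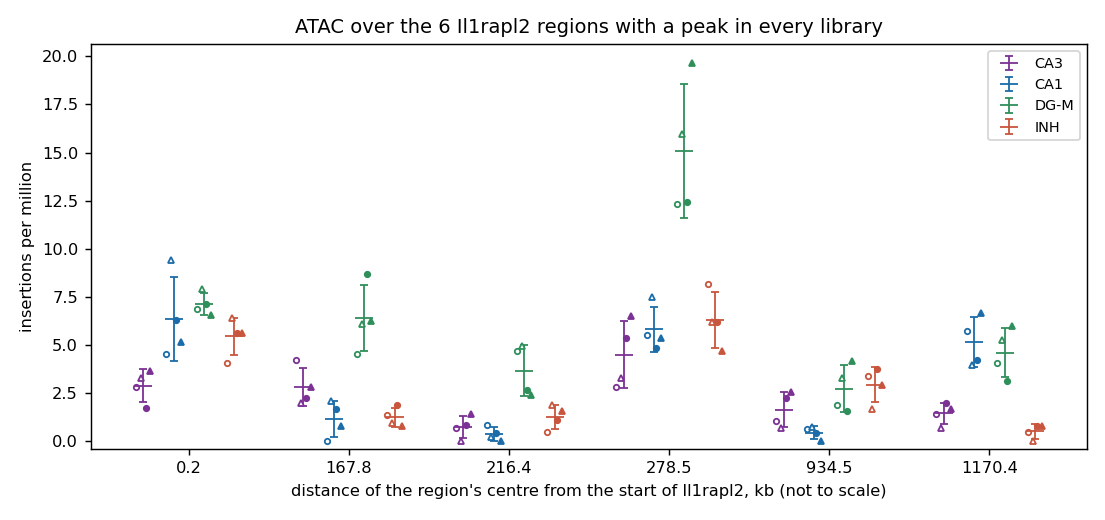
ATAC CPM over the 6 Il1rapl2 regions with a peak in every library, by distance in kb from the start of the gene (not to scale), in CA3, CA1, DG-M and INH nuclei. Points are libraries (open MF, filled HF; circle replicate 1, triangle replicate 2), with the mean and SD of 4. At 0.2 kb CA3 lies at 1.70 to 3.67, below the other classes, and at 278.5 kb DG-M reaches 12.3 to 19.7.

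Between diets, the CA3 values of these regions are given as a description only. The start region overlapped between diets (2.82 and 3.30 in MF, 1.70 and 3.67 in HF). Both HF libraries were above both MF libraries at 4 of the 6 regions, where the same held for 15.9% of 154783 shared regions, and nothing is read from this count. At 278.5 kb MF had 2.82 and 3.30 and HF 5.38 and 6.49, at 934.5 kb 1.06 and 0.659 against 2.26 and 2.54, at 1170.4 kb 1.41 and 0.659 against 1.98 and 1.69, and at 216.4 kb 0.704 and 0 against 0.849 and 1.41. The last 3 rested on 0 to 9 insertions per library. Outside CA3, 17 pairs of an Il1rapl2 region and a class were tested and 0 were called, none with an unadjusted p under 0.05 by edgeR. Over all 4 genes 0 of 148 pairs were called by edgeR, against 0.000157% called of 637294 pairs of all regions. An unadjusted p under 0.05 was reached by 7 of the 148, against 3.75% of all pairs. DESeq2 called 0 of them too.

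Some regions of the relatives were also called between CA3 and the other classes. Of all regions tested, 33.0% were called against CA1, 50.1% against DG-M and 53.4% against INH. At the start of Il1rap, CA3 had 25.9 ± 3.8 ATAC CPM (n = 4), above CA1 at 17.2 ± 1.87 (log2 0.52, edgeR adjusted p = 0.0073) and below DG-M at 33.8 ± 3.74 (-0.52, adjusted p = 0.00071) and INH at 28.2 ± 3.90 (-0.33, adjusted p = 0.047). Of 16 Il1rap regions tested against DG-M, 8 were lower in CA3 and 2 higher (background 24.3% and 25.8%), and of 13 tested against CA1, 6 were higher and 0 lower (background 15.7% and 17.3%). Against INH the count ran opposite to the start region, with 5 of 14 higher and 1 lower (background 26.8% and 26.5%). At the internal start of Il1r1, CA3 had 7.17 ± 1.80 ATAC CPM and DG-M 17.8 ± 1.15 (-1.46, edgeR adjusted p = 3.9e-07). A further Il1r1 intron region, 45.5 kb into the gene, stood at 4.10 ± 1.28 in CA3 and 22.2 ± 4.09 in DG-M (-2.56, edgeR adjusted p = 2.3e-12). The internal start was also more open in INH, at 13.2 ± 0.978, than in CA3 (-1.10, edgeR adjusted p = 0.00049), although Il1r1 RNA stood at 5.07 CPM in INH and 6.50 CPM in CA3. Of 9 Il1r1 regions tested against DG-M, 5 were lower in CA3 and 2 higher (background 24.3% and 25.8%), and of 9 against INH, 1 was lower and 5 higher (background 26.5% and 26.8%). Of 10 tested against CA1, 3 were lower and 2 higher (background 17.3% and 15.7%).

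Il1rapl1 was lower in CA3 than in DG-M at 6 of 10 regions tested and higher at 1 (background 24.3% and 25.8%). Against CA1 it was higher at 2 of 8 regions and lower at 0, and against INH higher at 2 of 7 and lower at 1 (background 15.7% and 17.3% for CA1, 26.8% and 26.5% for INH). The region over its start was not called against any of the 3 classes, with 7.63 ± 1.82 ATAC CPM in CA3 and 10.2 ± 2.06 in DG-M (n = 4). An intron region 877.3 kb into the gene, chrX:87237935-87238838, had a negative log2 ratio of HF over MF in all 9 classes tested, from -0.04 in AST to -1.35 in CA1, with none called over all libraries. All 9 classes come from the same 4 libraries. Without MF2 the ratio of this region was -2.01, -2.05 and -1.99 in CA1, DG-i and ODC, and without HF1 it was -1.58 and -2.88 in DG-M and DG-i. Each of these fits has 1 library in an arm, assumed to vary as the pair of the other diet does. In DG-M this region had 55.5, 16.4, 37.0 and 12.2 ATAC CPM in MF1, MF2, HF1 and HF2 and in INH 28.5, 4.75, 19.4 and 5.44. Both first replicates were above both second ones there, and the diets overlapped.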

How the data were processed

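Nuclei of the hippocampus were profiled with 10x single-nucleus multiome kits in 4 libraries, 2 per diet. The authors aligned reads to mm10 with Cell Ranger ARC 2.0.1 and deposited, for each library, UMI counts per gene and ATAC insertion counts per peak, without normalization. Nuclei with 500 to 7000 genes, at most 2% mitochondrial UMIs and 1000 to 70000 ATAC counts were kept, and doublets were scored but left in, with their removal as an alternative (score over 0.05). Nuclei were clustered on RNA in scanpy 1.11.5 (3000 variable genes, 20 components, resolution 0.8), excitatory nuclei were clustered again (2000 genes, resolution 0.5), and classes were rebuilt from marker genes with the receptor genes left out of the variable genes. Counts were summed per library and class. Diet was tested outside CA3, and ATAC between CA3 and other classes with library as a block, by edgeR 4.0.16 quasi-likelihood tests in R 4.3.3 with Benjamini-Hochberg adjustment over all genes or regions of a class (FDR under 0.05, and 1.2-fold for RNA). CPM was scaled to all UMIs of the class. ATAC regions were peaks found in all 4 libraries, with CPM scaled to all insertions in such regions.

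The genes, lists and tests were chosen with earlier results of these data known. Named genes were the 4 receptors, the 10 genes most like Il1rapl2 (1 of them is not reported here), and genes of the lists. Alternatives covered doublet removal, marker-only classes, finer clusters, TMM or RLE scaling, no low-count filter, thinning to 2000 UMIs, no library block, DESeq2 1.42.0, a Wilcoxon test over nuclei, stricter thresholds, the replicate block and leaving out each library. Intervals and limits cover counting error only, and p-values of diet measure the spread between libraries. Those between classes, with library as a block, measure how the class difference varies over libraries. The scripts were tested on simulated data.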

Additional observations from a re-analysis of the deposited data

Results flagged for a closer look

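The libraries of the diets did not overlap in 9 of the 32 values outside CA3, with HF above MF in 5 (background 10.6% of all values) and below in 4 (16.4%), and no value passed the test. Those of Il1rapl1, in DG-M and MG, were both above. In MG the levels of Il1rapl1 and Il1rap were lower without nuclei above the doublet score, as given above. For Il1rapl2 the log2 ratio of mean CPM, HF over MF, was 0.20 in CA1 and 1.6 in CA3, the class on which the gene was chosen, and -0.91 in CR and -0.13 in INH. Without nuclei above the doublet score, the diets overlapped in INH (430 and 540 CPM in MF, 565 and 426 in HF). In CR, MF1 and MF2 then stood at 211 and 73.7 CPM against 74.0 and 80.5 in HF. The fitted ratio in CR was 0.68 with classes set by markers alone. For Il1rap the ratio was 0.34 in MG, 0.23 in OPC, -0.23 in COP and -0.71 in Alk/Klhl1-led nuclei, where the fitted ratio was 0.25 without nuclei above the doublet score. The differences between classes were not tested.

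Endothelial nuclei, which entered no comparison, held 36 UMIs of Il1r1 in 7 of 23 nuclei, at 525, 1384, 120 and 0 CPM in MF1, MF2, HF1 and HF2. These libraries held only 4, 10, 5 and 4 such nuclei, so nothing is read from the diets here.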

How the results depend on the processing

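The Il1rapl2 log2 ratio in CA3 was 2.68 with doublets left out, 2.70 with finer clusters and 0.24 with clusters of all nuclei, the last chosen after the data were seen. The ratio of 2.68 still counted the HF2 nucleus that held 60 of the 97 UMIs left in that library. Of the 4 genes, 0 values were called between diets outside CA3, 1 with the replicate block (Il1rapl1 in DG-M, 0.34, edgeR adjusted p = 0.021), 1 by a Wilcoxon test over nuclei, which are not replicates of a diet (Il1rapl1 in DG-M, 0.27, with an edgeR adjusted p of 0.9997 over libraries) and 0 to 1 leaving out each library, the call being Il1rapl2 in DG-i without MF1 (-1.94, edgeR adjusted p = 0.019). The labels pair no libraries, and the deviations of same-numbered libraries correlated at 0.04 to 0.41 over 12 classes. The highest, 0.41, was in DG-M, the class of the replicate-block call. ATAC regions called between diets numbered 0 to 3 leaving out each library, 3 without MF2 and 2 without HF1, all at the Il1rapl1 intron region 877.3 kb from its start. Il1rapl2 regions called between CA3 and CA1 numbered 1 to 2 leaving out each library, 1 without MF2 or HF1, and 1 at FDR under 0.01 with 2-fold. Those between CA3 and INH numbered 0 to 2, with 0 without MF2 or HF1 and 2 without HF2, and were 2 without c2 (chosen after the data were seen) and 0 at the stricter threshold. Diet ratios reversed for Il1rapl2 in COP (-1.54 to 0.089 leaving out each library, positive without MF2), Il1rapl2 in CR by markers alone (0.68) and Il1rap in Alk/Klhl1-led nuclei without doublets (0.25). The causes were not tested. Of 69 alternative values for the main results 53 were labelled the same. Counts were judged by their size alone, and the CA3 ratio by its direction and the stated spread. The diet counts were 0 in the main fits, and the CA3 ratio is the difference on which the gene was chosen, so nothing is read from this tally. Of 117 values for single regions, 111 stayed the same by direction and call. Of the 32 diet ratios 24 changed sign under some alternative. In CA3 the region over the start of Il1rapl2 rests on 37 insertions.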
